A study of Aloe vera with 7 samples.

Results

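The genes described here are the plastid genes of photosystem I and of the cytochrome b6f complex, compared between leaf and root of Aloe vera. They were taken by symbol, as the probe sets that carry exactly 1 gene from a list. For photosystem I the list held psaA, psaB, psaC, psaI and psaJ. For the cytochrome b6f complex it held petA, petB, petD, petG, petL and petN. The list was chosen with earlier results of these data known, so shares set beside those of all probe sets are description only. Of these 11 symbols 9 had such a probe set, 4 of photosystem I and 5 of the cytochrome b6f complex, among 11100 single-gene probe sets and 18810 probe sets tested. No single-gene probe set was listed for psaI or petL, which are not analysed here. The 9 probe sets are 245007_at for psaA, 245006_at for psaB, 244932_at for psaC, 244967_at for psaJ, 245020_at for petA, 244976_at for petB, 244977_at for petD, 244966_at for petG and 245000_at for petN, and 0 of them carry a suffix for sequence shared between genes.

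In the thylakoid membrane the cytochrome b6f complex takes electrons from plastoquinol and hands them to plastocyanin, and photosystem I uses light to move them on to ferredoxin. The core subunits of both complexes are encoded in the plastid genome, and further subunits are encoded in the nucleus and imported. Leaves hold chloroplasts that carry both complexes, while root plastids are mostly without photosynthesis. Leaf against root is here a comparison of tissue-wide RNA, and the state of the plastids in the samples was not measured.

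The study hybridised 3 leaf RNA, 3 root RNA and 1 genomic DNA sample of Aloe vera, a succulent monocot, to Affymetrix ATH1 arrays, a design for Arabidopsis thaliana genes. All came from untreated material: the labels describe 1 mature garden-centre plant kept indoors at room temperature, give no genotype or age, and leave unsaid whether each replicate is another plant; the p-values therefore rest on a spread among samples that may be technical alone. A value reports the binding of Aloe RNA to probes written for the Arabidopsis gene. It is a log2 difference from the median of that probe set across the 6 RNA arrays. The values thus give differences in probe signal between tissues and no signal levels, and whether a probe set was above background is not known. Labelling took 250 ng of total RNA per sample and a kit that primes at poly(A) tails, which plastid mRNAs carry mostly as short tails on RNA that is being degraded; what this did to the values was not tested. The number of arrays limits the precision: the standard error of a leaf minus root difference had a median of 0.26 log2 over all probe sets. Among the control probe sets, the control for the large ribosomal RNA of the cytosol was at -4.72 log2 in leaf replicate 2, where the remaining 5 lay between -0.90 and 1.08 log2. In leaf replicate 1 an ubiquitin control was at 1.34 log2, with the others between -0.20 and 0.16 log2. The values of psaB, petA, petN and petD and of other genes that moved most are also given without leaf replicate 2. In whole-tissue RNA, fewer green plastids or cells and less RNA in each of them cannot be told apart.

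The member differences ran from -0.17 to 3.30 log2, without a test of any grouping among them. Leaf had the higher mean for 8 of the 9, against 45.5% of all probe sets, and the 4 with differences of at least 2-fold were psaB, petG, petN and petA. A difference of that size toward leaf was seen in 2.22% of all probe sets. In limma, with Benjamini-Hochberg adjustment over all 18810 probe sets, 0 of the 9 passed an adjusted p of 0.05, where 0.276% of all probe sets were called with leaf higher and 0.0638% with root higher. Before adjustment, at p under 0.05, 4 members were higher in leaf and 0 higher in root, against 4.88% and 4.68% of all probe sets. The count of 4 was 2 without leaf replicate 1 or leaf replicate 3, 3 without root replicate 1 or root replicate 3, and 5 without leaf replicate 2 or root replicate 2. Leaf and root values did not overlap, with leaf higher, for 3 members, psaB, petG and petN, and in 6.87% of all probe sets; 0 members had all root values above all leaf values, which 8.27% of probe sets had. Leaf was higher in all 3 same-numbered pairs for 5 members, psaA, psaB, petB, petG and petN, against 14.8% of all probe sets.

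**Figure D1:**
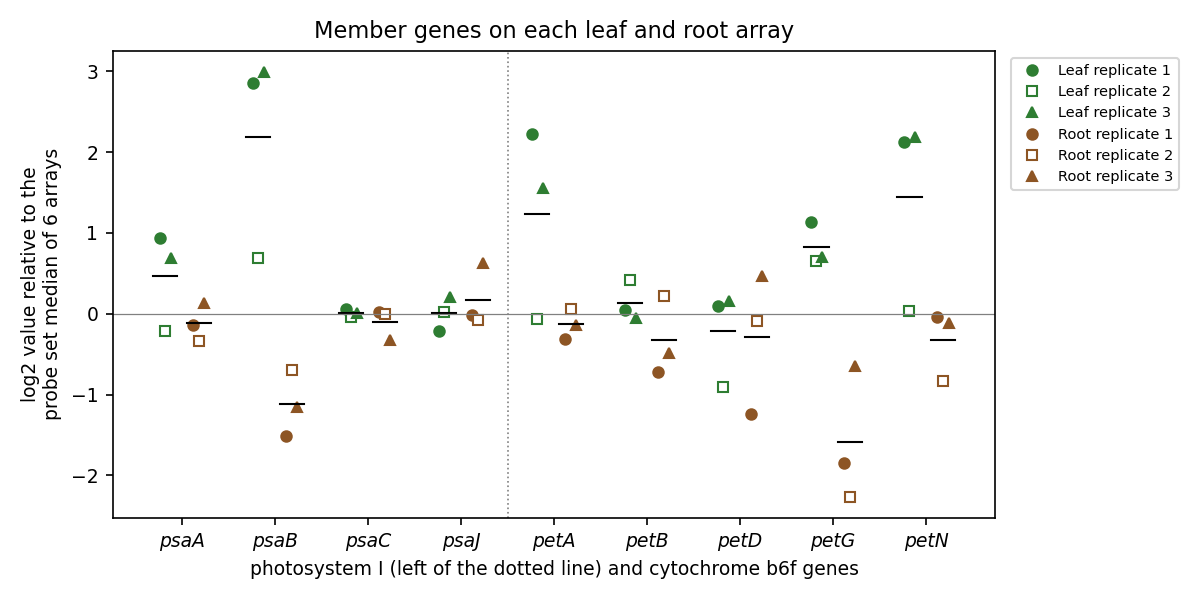
Deposited log2 values of the 9 member genes, relative to each probe set's median over 6 arrays (vertical axis), for 3 leaf arrays (green) and 3 root arrays (brown); marker shapes give the replicate number and black bars the mean of 3 arrays. The leaf values of psaB, petG and petN lie above all root values, and those of the other 6 members overlap the root values.

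Photosystem I is built around psaA and psaB, which encode the paired reaction-centre proteins that bind the special chlorophyll pair and most of the antenna pigment of the core. The psaB probe set stood at 2.86, 0.69 and 2.99 log2 in leaf replicates 1 to 3 and at -1.51, -0.69 and -1.15 log2 in root replicates 1 to 3. All leaf values lay above all root values, with leaf replicate 2 lowest among the leaf arrays. Its means were 2.18 ± 1.29 log2 in leaf and -1.12 ± 0.41 log2 in root (SD, n = 3 arrays each). The leaf minus root difference was 3.30 ± 0.59 log2 (SE), which is 9.86-fold, with a 95% interval from 1.94 to 4.66 log2 and an adjusted p of 0.0943 in limma. This SE and interval, like those of every gene here, use a limma variance drawn toward those of all probe sets. They can be narrower than the spread of the gene's own arrays would give. By the size of its difference toward leaf psaB ranked 17 among the 18810 probe sets. Without leaf replicate 2 the difference was 4.05 log2, or 16.5-fold, and the adjusted p was 0.00726, the only one of 12 alternative fits in which psaB was called; in that fit 0.138% of all probe sets were called higher in leaf.

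The partner gene psaA stood at 0.93, -0.21 and 0.69 log2 in leaf and at -0.13, -0.33 and 0.13 log2 in root. Leaf replicates 1 and 3 lay above all root values and leaf replicate 2 lay among them. The difference was 0.58 ± 0.32 log2 (adjusted p = 0.651), with an interval from -0.17 to 1.33 log2. The psaA and psaB proteins form 1 heterodimer, and their genes lie next to each other. Within each array the psaB value minus the psaA value was 1.93, 0.91 and 2.30 log2 in leaf and -1.38, -0.36 and -1.28 log2 in root, so the gap between leaf and root was 2.72 log2 wider for psaB. That gap was not tested.

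The remaining photosystem I members, psaC and psaJ, had small differences between the tissues. The gene psaC encodes the subunit that carries the terminal iron-sulphur clusters and passes electrons toward ferredoxin. It stood at 0.061, -0.041 and 0.0087 log2 in leaf and at 0.026, -0.0087 and -0.33 log2 in root. Root replicate 3 was the array farthest from 0, and leaf and root overlapped. The difference was 0.11 ± 0.20 log2 (adjusted p = 0.921), with an interval from -0.34 to 0.57 log2, and it was 0.0011 log2 without root replicate 3. The gene psaJ encodes a small membrane subunit near the docking side for plastocyanin. It stood at -0.21, 0.018 and 0.21 log2 in leaf and at -0.018, -0.082 and 0.63 log2 in root, with overlap, and was the one member with a higher mean in root, a direction that turned without root replicate 3 (0.058 log2). The difference was -0.17 ± 0.26 log2 (adjusted p = 0.909), with an interval from -0.76 to 0.43 log2. The table does not show if these probe sets were above background, so values near 0 do not show equal amounts of RNA. The intervals of psaC and psaJ leave out a 2-fold difference toward leaf on these probes.

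In the cytochrome b6f complex, petA encodes cytochrome f, the haem protein that reduces plastocyanin, petB encodes cytochrome b6 and petD encodes subunit IV. The petA probe set stood at 2.22, -0.064 and 1.56 log2 in leaf and at -0.31, 0.064 and -0.14 log2 in root. Leaf replicates 1 and 3 lay more than 1 log2 above every root array, and leaf replicate 2 lay within the root range. The SD was 1.18 log2 in leaf and 0.19 log2 in root. The difference was 1.37 ± 0.52 log2 (2.59-fold, adjusted p = 0.449), with an interval from 0.16 to 2.59 log2. It was 2.02 log2 without leaf replicate 2 (4.07-fold, adjusted p = 0.0744) and 0.88 log2 without leaf replicate 1 (1.84-fold, adjusted p = 0.707).

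The petB probe set stood at 0.047, 0.42 and -0.047 log2 in leaf and at -0.72, 0.22 and -0.49 log2 in root. Leaf was higher in all 3 replicate pairs, by 0.77, 0.20 and 0.44 log2, although the values of the tissues overlapped. The difference was 0.47 ± 0.29 log2 (1.38-fold, adjusted p = 0.699), with an interval from -0.20 to 1.13 log2. It is 1 of 2 members, with psaJ, for which leaf replicate 2 was not the lowest leaf array. The petD probe set stood at 0.094, -0.91 and 0.16 log2 in leaf and at -1.24, -0.094 and 0.47 log2 in root. Both tissues spread widely, with an SD of 0.60 log2 in leaf and 0.87 log2 in root, and the difference was 0.070 ± 0.47 log2 (adjusted p = 0.985), with an interval from -1.02 to 1.16 log2. Its sign turned when leaf replicate 1, leaf replicate 3 or root replicate 1 was left out (-0.086, -0.12 and -0.40 log2), and it was 0.41 log2 without leaf replicate 2, so no direction can be given for petD.

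Among the small single-helix subunits, petG and petN both had leaf values above all root values. Both proteins are needed for a stable complex, as known from tobacco and green algae. The petG probe set stood at 1.13, 0.65 and 0.71 log2 in leaf and at -1.85, -2.26 and -0.65 log2 in root. The leaf arrays lay close together (SD 0.27 log2) and the root arrays were spread (SD 0.84 log2), with root replicate 3 nearest to leaf. The difference was 2.42 ± 0.41 log2 (5.33-fold, adjusted p = 0.0777), with an interval from 1.48 to 3.35 log2, and petG had the smallest adjusted p of the 9. Without root replicate 3 the difference was 2.88 log2 (7.38-fold) and the adjusted p was 0.0261, the only one of the 12 alternative fits in which petG was called, with 0.106% of all probe sets called higher in leaf.

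The petN probe set stood at 2.12, 0.038 and 2.19 log2 in leaf and at -0.038, -0.83 and -0.11 log2 in root. The tissues were apart by 0.076 log2 at their nearest values, those of leaf replicate 2 and root replicate 1, while leaf replicates 1 and 3 lay over 2 log2 above every root array. The SD was 1.22 log2 in leaf and 0.44 log2 in root. The difference was 1.78 ± 0.57 log2 (3.43-fold, adjusted p = 0.355), with an interval from 0.47 to 3.09 log2. Without leaf replicate 2 it was 2.49 log2 (5.60-fold, adjusted p = 0.0527).

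**Figure D2:**
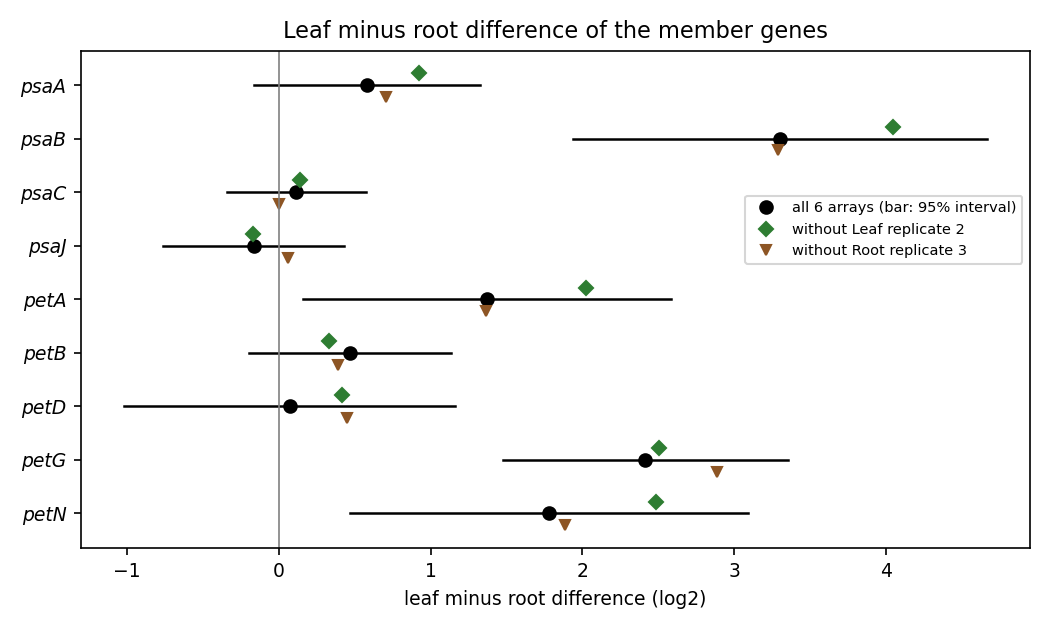
Leaf minus root difference in log2 (horizontal axis) of the 9 member genes with all 6 arrays (black, bar for the 95% interval), without leaf replicate 2 (green) and without root replicate 3 (brown). Leaving out leaf replicate 2 moved psaB to 4.05, petN to 2.49 and petA to 2.02 log2, and left petG at 2.51 log2.

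Complex by complex, the median difference was 0.35 log2 over the 4 photosystem I members and 1.37 log2 over the 5 cytochrome b6f members, where the median over all probe sets was -0.034 log2. The range was -0.17 to 3.30 log2 in photosystem I and 0.070 to 2.42 log2 in the cytochrome b6f complex, so the ranges overlapped and each complex held genes near 0 beside genes far above it. No difference between the complexes was tested. Leaving out leaf replicate 2 put the cytochrome b6f median at 2.02 log2, and leaving out leaf replicate 1 put it at 0.88 log2.

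Leaf replicate 2 was the lowest of the leaf arrays for 7 of the 9 members, against 34.1% of all probe sets and 34 of the 50 other chloroplast-encoded probe sets. Set against the root mean, leaf replicates 1 and 3 together and leaf replicate 2 alone differed most for petN (2.49 and 0.37 log2), psaB (4.05 and 1.81 log2) and petA (2.02 and 0.066 log2). For psaA the values were 0.92 and -0.10 log2, and for petD 0.41 and -0.62 log2. For petG they were 2.51 and 2.23 log2, so petG was high in leaf replicate 2 as well. Of the 4 members at least 2-fold above root in leaf replicates 1 and 3, 2 were so in leaf replicate 2, petG and psaB. The same held for 8 of 20 among the other chloroplast-encoded genes and for 47.5% of the 531 such probe sets among all tested. The low ribosomal RNA control in leaf replicate 2 stands beside these values, and its part in them was not tested.

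**Figure D3:**
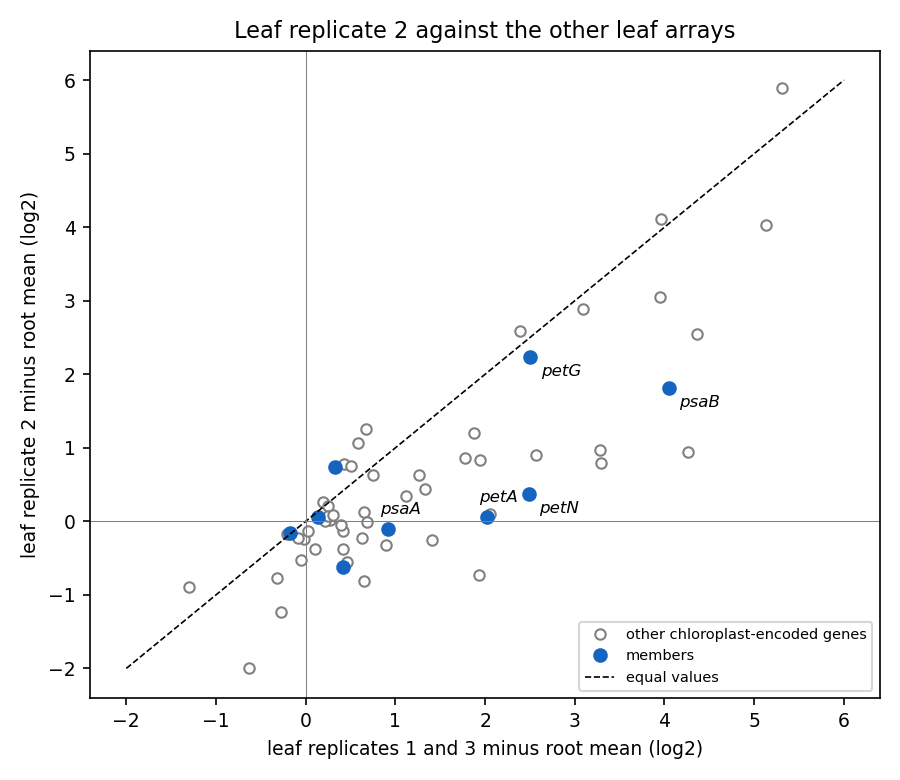
Difference from the root mean, in log2, for leaf replicate 2 (vertical axis) against the mean of leaf replicates 1 and 3 (horizontal axis), over 59 chloroplast-encoded genes; members are blue and the dashed line marks equal values. The members psaB, petN, petA, petD and psaA lie well below the line, and petG, at 2.51 and 2.23 log2, lies close to it.

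Apart from petN, the members are read in plastid transcription units with genes of other complexes, by the gene order usual in land plants, and the neighbours on these arrays did not differ alike. The unit psaA, psaB, rps14 had differences of 0.58, 3.30 and 0.23 log2, the last for a ribosomal protein gene. The members petB and petD, at 0.47 and 0.070 log2, end a unit that starts with psbB. There the photosystem II genes psbB and psbH differed by 3.65 and 4.01 log2 and both passed over all probe sets (adjusted p = 0.0236 and 0.00229), although the call of psbB ended with the replicate number as a block (adjusted p = 0.0508). Within each array psbH minus petB was 2.33, 1.75 and 1.70 log2 in leaf and -1.64, -2.04 and -1.16 log2 in root. The lack of overlap is that of psbH itself, whose leaf values all lay above its root values. For petB minus petD the tissues overlapped.

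In the unit of petL, petG, psaJ, rpl33 and rps18, the adjacent members petG and psaJ differed by 2.42 and -0.17 log2, and the ribosomal protein genes rpl33 and rps18 by 0.86 and 0.19 log2. Within each array petG minus psaJ was 1.34, 0.63 and 0.49 log2 in leaf and -1.83, -2.18 and -1.27 log2 in root. The lack of overlap is that of petG itself, as psaJ differed little between the tissues. The petA gene, at 1.37 log2, ends a unit in which accD, for fatty acid synthesis, stood at -0.60 log2 and ycf4, for an assembly factor of photosystem I, at 0.23 log2. The psaC gene, at 0.11 log2, lies among genes of the NADH dehydrogenase-like (NDH) complex, where ndhA stood at 5.51, ndhG at 1.65, ndhI at 0.54, ndhD at -0.21 and ndhH at -0.47 log2. These contrasts between neighbours were not tested, and the values do not show which of these probe sets were above background. As general background, the long transcripts of such units in plastids are commonly cut into smaller RNAs. Whether that bears on these values was not tested.

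**Figure D4:**
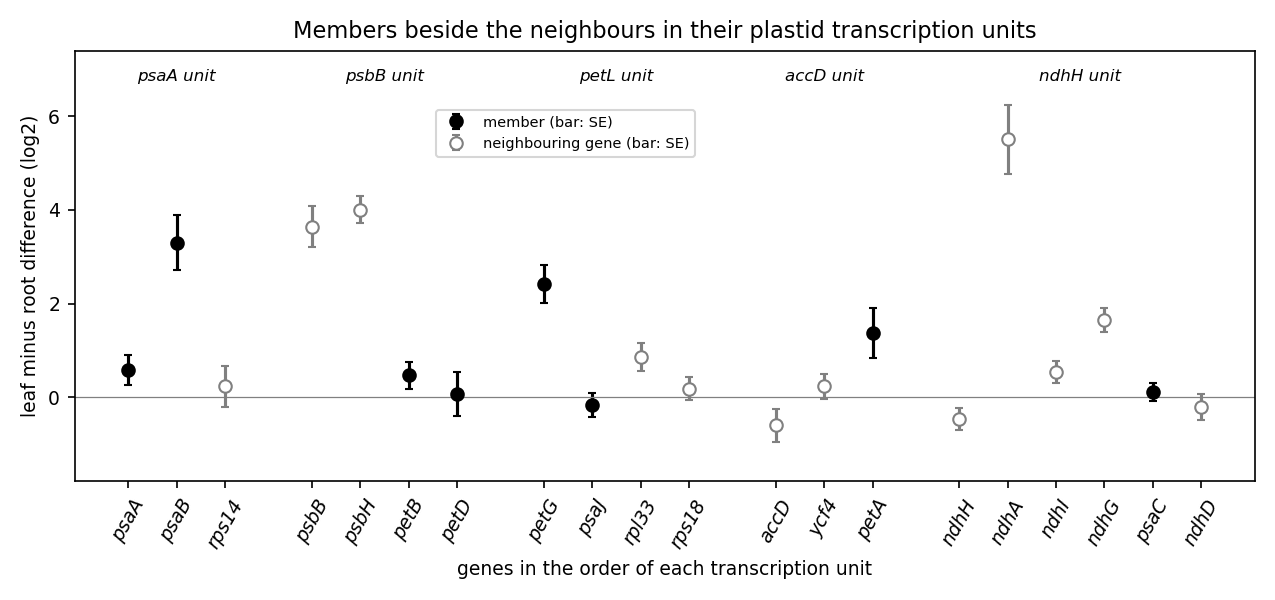
Leaf minus root difference in log2 with its SE (vertical axis) for members (filled) and neighbouring genes (open) in 5 plastid transcription units, in gene order and over 3 arrays per tissue. The members psaB at 3.30 and petG at 2.42 log2 stand beside psaA at 0.58 and psaJ at -0.17 log2, and petB and petD stay below psbB and psbH.

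Other plastid genes of the light reactions give the setting for the members. In photosystem II 5 of 12 measured genes were called higher in leaf over all probe sets, namely psbZ, psbH, psbC, psbB and psbK, with a median difference of 2.49 log2 over the 12. The ATP synthase had 1 of 6 called, atpH, and a median of 1.30 log2 in a range from -1.16 to 3.16 log2. Its lowest gene, atpA, had all root values above all leaf values and an adjusted p of 0.168 in limma, and is named after its value was seen. The NDH complex had 1 of 8 called, ndhA, and a median of 0.37 log2. None of these genes was called higher in root. The 7 calls fell to 3 without leaf replicate 1, 2 without leaf replicate 3, 4 without root replicate 1 and 4 without root replicate 3. The largest member, psaB at 3.30 log2, lay between atpB at 3.16 log2 and psbB at 3.65 log2, with psbK at 3.02 log2. Its standard error was 0.59 log2, against 0.88 log2 for atpB, 0.44 log2 for psbB and 0.27 log2 for psbK. The 9 members had a median of 0.58 log2, with 8 means higher in leaf and 3 genes with leaf values above all root values, against 0.51 log2, 40 means and 18 genes among the 50 other chloroplast-encoded genes.

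**Figure D5:**
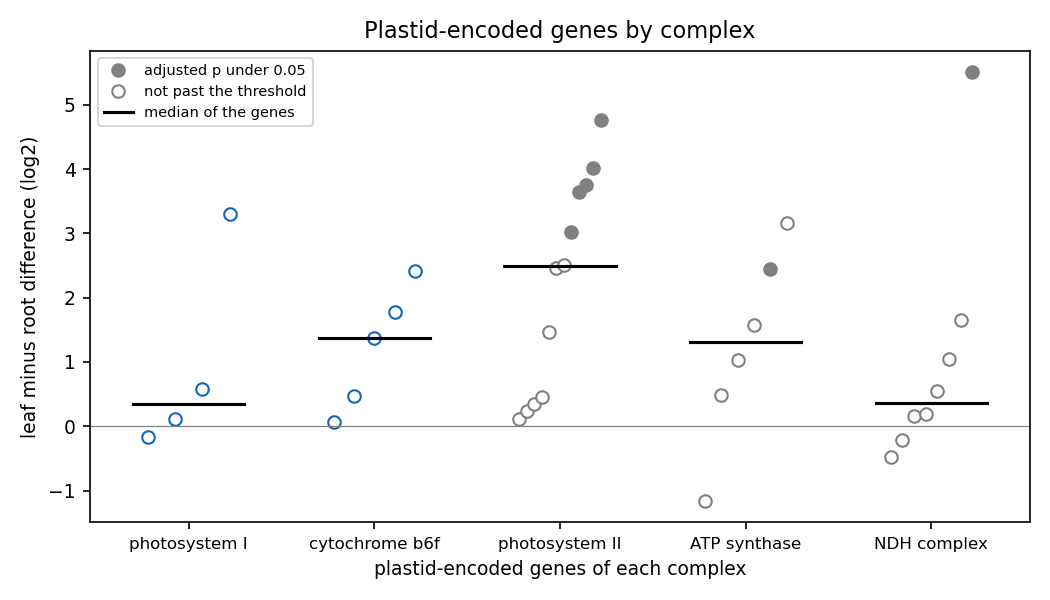
Leaf minus root difference in log2 (vertical axis) of each plastid-encoded gene, by complex, with the median as a black bar; filled points passed an adjusted p of 0.05 in limma over all probe sets. The members in blue are all open, with medians of 0.35 and 1.37 log2, against 2.49 log2 for photosystem II.

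Factors that assemble the 2 complexes were also measured in part. The plastid gene ycf3, which encodes an assembly factor of photosystem I, stood at 2.36, 0.33 and 1.63 log2 in leaf and at -0.43, -0.94 and -0.33 log2 in root. Leaf replicate 2 was lowest of its leaf arrays, as in 34 of the 50 chloroplast-encoded probe sets outside the members. The ycf3 difference was 2.01 ± 0.48 log2 (4.04-fold, adjusted p = 0.193), and 2.57 log2 without leaf replicate 2. The gene ccsA, for a protein that attaches haem to cytochrome f, differed by 0.22 ± 0.20 log2 (adjusted p = 0.822). Of the 3 measured plastid assembly genes 0 were called.

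Nuclear partners of the members were measured for few genes. Of 18 nuclear genes of photosystem I and its antenna 2 matched a single-gene probe set: PSAE-1, which helps dock ferredoxin, at 0.048 ± 0.19 log2 (adjusted p = 0.971), and PSAN, a lumenal subunit, at -0.052 ± 0.29 log2 (adjusted p = 0.980). Of 11 nuclear genes of the cytochrome b6f complex and its electron carriers 1 matched, AT2G26500, the gene of the small subunit PetM. It stood at -0.82, -0.13 and -0.21 log2 in leaf and at 0.13, 0.55 and 0.21 log2 in root, all leaf values below all root values, with a difference of -0.68 ± 0.25 log2 (adjusted p = 0.444). Among 13 nuclear assembly factors 4 matched and 0 were called, with AT1G49380, for a cytochrome c assembly protein, at -0.86 ± 0.41 log2 (adjusted p = 0.585) and AT1G22700, for the photosystem I assembly protein Pyg7, at 0.27 ± 0.24 log2 (adjusted p = 0.804). None of 5 nuclear factors that bind psa or pet transcripts matched. The tissue labels could be checked on few markers: of 14 leaf genes 4 were measured, all with a higher mean in leaf and 0 called, among them LHCB4.1 at 0.73 ± 0.23 log2 and PRK at 1.25 ± 0.44 log2, and of 10 root genes 2 were measured, EXPA7 at -0.084 ± 0.28 log2 and EXPA18 at -0.082 ± 0.24 log2.

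Probe sets with the profile most like the members over the 6 arrays were mostly genes outside the chloroplast genome. The chloroplast-encoded ones among them were psbD, atpB and ndhA, none of them the highest for its profile. Against the mean of the photosystem I members, to which psaB adds the widest values, the highest Pearson correlations among 11091 other single-gene probe sets were 0.99 for AT4G18400, psbD, AT3G11390, AT1G61690 and AT3G06710, where psbD encodes a reaction-centre protein of photosystem II and differed by 2.51 log2 between leaf and root, or 3.28 log2 without leaf replicate 2. Against the mean of the cytochrome b6f members they were AT5G65950, atpB of the ATP synthase, SETH2, AT4G25370 and AT5G42110, at 0.98 to 1.00, with atpB at 3.16 log2, or 4.26 log2 without leaf replicate 2. For petG alone they were AT1G33490, AT5G05710, ndhA, AT1G65180 and AT4G23590, at 0.98 to 1.00. For psaC and psaJ, whose leaf and root values overlapped, no chloroplast-encoded gene was among the 5 highest. Of these probe sets 120 (1.08%) correlated above 0.9 with the photosystem I mean, 113 (1.02%) with the cytochrome b6f mean and 125 (1.13%) with petG. For psaJ, whose tissues overlapped, there were 116 (1.05%), and for psaC 62 (0.559%). The 6 arrays share the split into tissues, and its part in these counts was not tested.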

How the data were processed

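The authors deposited 1 table of log2 values. Per the submitters' processing notes RMA was used, a method that removes background, sets the arrays to 1 distribution and combines the probes of a set; its version and the log base are not stated, and base 2 was assumed as RMA's usual scale. From the values, the median over the 6 RNA arrays is within 1e-06 of 0 in all 18874 probe sets, a centring that is not stated. The genomic DNA column held 0 values, so no level or background filter was possible. After leaving out 64 control probe sets, leaf minus root was fitted over 18810 with limma 3.58.1 in R 4.3.3 (lmFit and eBayes, 4 residual and 3.8 prior degrees of freedom) and called at an adjusted p under 0.05. Genes were named from the platform's probe annotation, whose 11100 single-gene probe sets were used; 350 had several genes and 7360 none listed. Summaries used Python 3.11.15, pandas 2.3.3 and NumPy 2.4.6. The fit was also run on simulated data with independent noise on each array. Those data lack the correlation between same-numbered arrays, so the run checks the code and not the calls made here.

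The members, gene lists and rules were chosen with earlier results of these data known. All members were named; in other lists called genes were named, or up to 2 with the smallest p. Replicate numbers are shared between tissues, and the labels do not say what they mark. Deviations from the tissue means correlated by 0.12, 0.37 and 0.25 between same-numbered arrays and by -0.29 to 0.064 otherwise. Such deviations cancel within each tissue, so higher values for some pairs of arrays go with lower values for the rest. These correlations therefore do not settle whether the numbers mark pairs. The main fit and every p printed without mention of the block are unpaired, and the block is an alternative. Alternatives were the replicate block, quantile normalization, array centring, probe sets without a shared-sequence suffix, array weights, a variance trend with robust fitting, and leaving out each of the 6 arrays.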

Additional observations from a re-analysis of the deposited data

How the results depend on the processing

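Of the 9 members 0 were called under the replicate block, quantile normalization, array centring, array weights, the suffix filter, or the variance trend with robust fitting. With 1 array left out the count higher in leaf was 0 to 1: psaB without leaf replicate 2 and petG without root replicate 3; root had 0 calls. Under the replicate block the adjusted p in limma was 0.0686 for petG, 0.100 for psaB and 0.108 for petN. With the variance trend and robust fitting it was 0.202 for petG, 0.229 for psaB and 0.699 for petN. Among the named genes the block changed the call of psbB only. Over left-out arrays the differences ranged from 2.90 to 4.05 log2 for psaB, 2.08 to 2.88 for petG, 1.41 to 2.49 for petN, 0.88 to 2.02 for petA and 0.35 to 0.92 for psaA. The ranges crossed 0 for petD (-0.40 to 0.45 log2) and psaJ (-0.30 to 0.058 log2); the cause was not tested. The median ranged from 0.88 to 2.02 log2 over the cytochrome b6f members and from 0.22 to 0.53 log2 over those of photosystem I. The count of called genes of the other pathway lists ranged from 2 to 7. Over all probe sets the 52 called higher in leaf and 12 higher in root were 115 and 40 with the variance trend and robust fitting, whose trend rests on centred values without levels, and 7 to 28 and 0 to 5 with 1 array left out, on fewer samples. Without signal levels, a probe set at background cannot be told from one with equal RNA in both tissues.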
